A study of Homo sapiens with 27 samples.

Results

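Transcript levels of 8 genes of the Janus kinase (JAK) and STAT pathway were followed, the kinases JAK1, JAK2 and TYK2 and the transcription factors STAT2, STAT3, STAT5A, STAT5B and STAT6. They were selected by gene symbol, and each symbol matched 1 row of the count table. They are 8 of the 36536 genes in the table, and all 8 were among the 15575 genes with enough counts to be tested.

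JAKs are tyrosine kinases carried on the inner tails of cytokine receptors. When a cytokine brings receptor chains together, the kinases phosphorylate each other, the receptor and then STAT proteins, which pair, move to the nucleus and bind DNA. In the mammary gland, STAT5 factors carry the prolactin signal to milk protein genes, and STAT3 is known for its part in the regression of the gland after weaning. Phosphorylation was not analysed here, and the values are transcript levels.

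The cells were MCF10A, an established, non-tumorigenic line of human breast epithelium. All samples shared the same culture history, in which medium with serum, insulin, hydrocortisone, cholera toxin and 20 ng/ml epidermal growth factor (EGF) was replaced by medium free of growth factors for 18 h. Cells then received EGF, oncostatin M (OSM, an interleukin-6 family cytokine that signals through JAKs) or the transforming growth factor TGFB (beta), singly, in pairs or all 3 at once, with 10 ng/ml of each. Controls were labelled PBS (phosphate-buffered saline) and T0 (no treatment), which makes 9 groups with 3 libraries each, and how long the treatments lasted is not given in the sources used here. Every group is the same single cell line grown on collagen, and nothing in the labels says that the 3 libraries of a group came from separate cultures, so the p-values measure only the spread between these samples, which may be technical.

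Polyadenylated RNA was sequenced to 30.1 to 52.9 M estimated counts per library (M, mega), the median library having 39.5 M. Expression is stated in CPM, a gene's counts per M counts of its library, with library sizes corrected by TMM (trimmed mean of M-values) factors. The lowest member count in any library was 170 (STAT5A) and the lowest for JAK2 was 252. Marker values in this paragraph are the exception, being CPM of plain library totals without TMM factors. All 8 of 8 epithelial markers had counts and summed to between 9578 and 19334 CPM over the libraries. Markers of fibroblasts summed to 13.2 to 222 CPM, of immune cells to 1.78 to 76.8 CPM and of endothelial cells to 0.244 to 5.02 CPM over the libraries. The group means of the 5 fibroblast markers summed to 143.5 CPM for PBS, and to 35.6 under EGF, 97.2 under OSM, 218 under TGFB and 14.1 under EGF+OSM, mostly DCN and COL1A1, while the fibroblast collagen COL3A1 had at most 2 counts in any library. Those of the 3 immune markers summed to 34.3 CPM for PBS, and to 7.14 under EGF, 62.5 under OSM and 16.4 under TGFB, nearly all CD14, while the leukocyte gene PTPRC averaged 0.0795 CPM in PBS. These sums moved with EGF as JAK1, STAT2 and STAT5A did, and their part in the results was not tested. In bulk RNA a change in the share of cells of a type cannot be told apart from a change in RNA per cell.

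The 3 ligands moved the family in different ways (the plot of levels by library). EGF lowered 7 of the 8 genes, OSM raised STAT3, STAT5B and TYK2 while lowering JAK1, JAK2, STAT5A and STAT6, and TGFB raised JAK1 and TYK2 and lowered STAT5B and STAT6. STAT5A had the widest range, with its highest group mean 5.46-fold above its lowest, followed by STAT3 with 3.55-fold, JAK1 with 2.95-fold and STAT2 with 2.41-fold. JAK2, STAT5B, STAT6 and TYK2 ranged over 1.73-fold, 1.61-fold, 1.48-fold and 1.45-fold. Changes of this kind were common. Calls below are genes whose Benjamini-Hochberg adjusted p in the edgeR quasi-likelihood test, taken over every gene tested, was under 0.05. With EGF 8 of 8 members were called, 1 higher and 7 lower, where 73.5% of all genes tested were called, 34.9% higher and 38.6% lower. OSM gave 7 of 8 called, 3 higher and 4 lower, against 63.4% of all genes (33.5% and 29.8%). TGFB gave 4 of 8, 2 higher and 2 lower, against 35.6% of all genes (19.9% and 15.8%). Each count therefore stands against a background in which such calls were frequent. Of all genes, 75.7% had 3 EGF libraries that did not overlap the 3 PBS libraries, and the share was 66.1% for OSM and 48.9% for TGFB. The median absolute log2 fold change of the members was 0.66 with EGF against 0.59 for all genes, 0.41 with OSM against 0.41, and 0.19 with TGFB against 0.22.

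**Figure D1:**
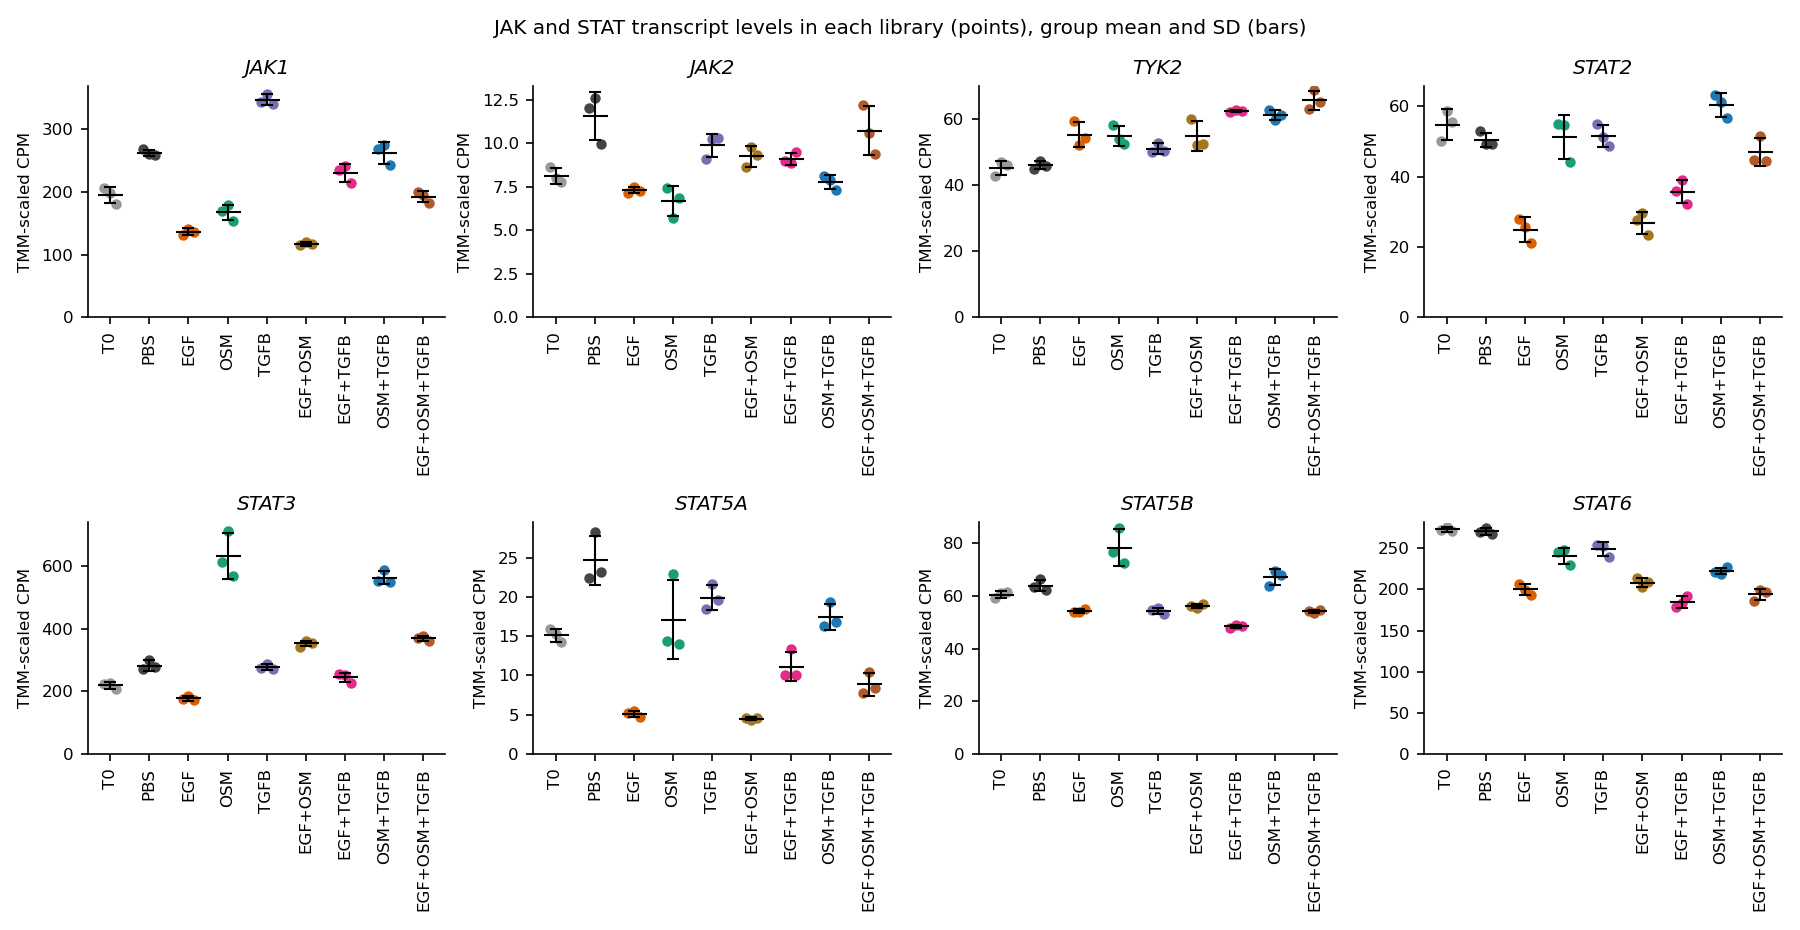
Level of each JAK and STAT gene (TMM-scaled CPM, vertical axes starting at 0) in the 9 groups; points are libraries and bars are the group mean and SD (n = 3). STAT3 is highest in the groups with OSM and no EGF (551 to 713 CPM), and STAT5A is lowest with EGF and with EGF+OSM (4.31 to 5.47 CPM).

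JAK1 is the kinase used by the shared gp130 receptor chain of the interleukin-6 family and by interferon receptors. Its libraries measured 268.7, 260.2 and 259.6 CPM in PBS and 130.8, 141.7 and 137.1 CPM with EGF. OSM gave 169.4, 178.8 and 154.4 CPM, and TGFB gave 343.3, 357.1 and 340.7 CPM. None of these 4 groups overlapped, with EGF and OSM below PBS and TGFB above it. Among all genes, 60.8% had no overlap between EGF and OSM, 74.3% between EGF and TGFB and 66.3% between OSM and TGFB. The log2 fold change against PBS was -0.94 with EGF (SE 0.06, adjusted p = 3.21e-13), -0.65 with OSM (SE 0.06, adjusted p = 5.98e-10) and 0.40 with TGFB (SE 0.06, adjusted p = 6e-06) in edgeR's quasi-likelihood test. EGF and OSM together took it lowest of all groups, to 117.4 ± 2.73 CPM (SD, n = 3), which is -1.16 from PBS on the log2 scale (SE 0.06, adjusted p = 3.78e-15). TGFB added to OSM gave 262.5 ± 17.6 CPM beside 262.8 ± 5.07 CPM in PBS, and the log2 difference lay between -0.12 and 0.12 (95% confidence interval). TGFB added to EGF gave 230.6 ± 14.3 CPM, between EGF alone and PBS. That pair's call against PBS (log2 fold change -0.19, adjusted p = 0.00638) rested on its library 3, without which it was -0.11 with an adjusted p of 0.108.

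JAK2, which serves the growth hormone, prolactin and erythropoietin receptors, had the lowest level per kilobase of transcript in PBS. It measured 12.1, 12.6 and 10.0 CPM in PBS, 7.17, 7.48 and 7.29 CPM with EGF, and 7.43, 5.72 and 6.88 CPM with OSM. Both ligands lay below every PBS library, with log2 fold changes of -0.66 (SE 0.10, adjusted p = 2.82e-06) and -0.80 (SE 0.11, adjusted p = 2.98e-07). EGF+OSM measured 8.64, 9.82 and 9.33 CPM, above every library given EGF or OSM alone (no overlap for 47.1% and 64.7% of all genes). It was higher than EGF by 0.34 on the log2 scale (SE 0.10, adjusted p = 0.0125) and higher than OSM by 0.48 (SE 0.11, adjusted p = 0.000375). Without the second EGF+OSM library the first of these was 0.30 with an adjusted p of 0.0588. The pair stayed below PBS at -0.32 (adjusted p = 0.00674), a call that ended without the second PBS library (-0.25, adjusted p = 0.0507). With all 3 ligands JAK2 was 10.7 ± 1.42 CPM and its log2 difference from PBS lay between -0.32 and 0.11 (95% interval). With TGFB alone the log2 difference of JAK2 from PBS was -0.23 and not called. It was called with upper-quartile scaling (-0.26, adjusted p = 0.0499) and without PBS library 3 (-0.32, adjusted p = 0.024).

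TYK2, a kinase of the interferon and interleukin-12 receptors, rose with every treatment. Its PBS libraries measured 44.9, 47.4 and 45.9 CPM, and its T0 libraries 42.9, 46.9 and 46.2 CPM. EGF gave 59.6, 52.3 and 54.2 CPM, OSM 58.3, 54.0 and 52.5 CPM, and all 3 ligands 63.1, 68.7 and 65.3 CPM. No treated group overlapped PBS, a separation found for 48.9% (TGFB) to 78.8% (EGF+OSM) of all genes, and the changes were small. The log2 fold change was 0.26 with EGF (SE 0.06, adjusted p = 0.000206), 0.25 with OSM (SE 0.06, adjusted p = 0.000429) and 0.51 with all 3 ligands (SE 0.06, adjusted p = 1.25e-08). With TGFB alone it was 0.15 (SE 0.06, adjusted p = 0.0463), and this call ended in 20 alternative settings, with adjusted p from 0.0503 to 0.167.

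STAT3, the main factor downstream of gp130 and known to bind and activate its own promoter, was the member with the largest rise. Its libraries measured 270.3, 301.8 and 276.8 CPM in PBS and 615.3, 713.3 and 569.2 CPM with OSM. EGF gave 175.7, 186.9 and 172.6 CPM, and TGFB gave 273.8, 288.7 and 271.3 CPM. OSM libraries lay above and EGF libraries below all PBS libraries, while TGFB and PBS overlapped. The log2 fold change was 1.16 with OSM (SE 0.06, adjusted p = 3.59e-14) and -0.67 with EGF (SE 0.06, adjusted p = 8.02e-10). With TGFB it was -0.03 with a 95% interval from -0.16 to 0.11.

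EGF lowered STAT3 whether or not OSM was present. EGF+OSM libraries measured 343.6, 362.5 and 354.0 CPM, above every PBS library and below every OSM library (no overlap for 78.8% and 64.7% of all genes). Relative to OSM alone the pair was lower by -0.84 on the log2 scale (SE 0.06, adjusted p = 5.32e-11), and relative to EGF alone it was higher by 0.99 (SE 0.06, adjusted p = 4.63e-12). With all 3 ligands STAT3 was 370.3 ± 8.02 CPM, which did not differ from EGF+OSM beyond the spread (adjusted p = 0.378). OSM+TGFB gave 564.3 ± 20.6 CPM, a log2 difference of -0.17 from OSM alone (adjusted p = 0.0316). That call was lost in 4 alternatives (adjusted p 0.0934 to 0.36). The difference was -0.07 (adjusted p = 0.36) without the second OSM library, the highest of its group. EGF+TGFB was 244.7 ± 15.7 CPM and -0.21 from PBS (adjusted p = 0.00484), a call that ended without its library 3 (-0.13, adjusted p = 0.0808).

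STAT5A, a mediator of prolactin and growth hormone signals in the mammary epithelium, had the largest fall. It measured 22.4, 28.3 and 23.2 CPM in PBS and 5.21, 5.47 and 4.73 CPM with EGF. EGF+OSM libraries measured 4.60, 4.31 and 4.63 CPM, all below every library given EGF alone, a separation found for 47.1% of all genes. The log2 fold change against PBS was -2.26 with EGF (SE 0.16, adjusted p = 6.54e-12) and -2.45 with EGF+OSM (SE 0.16, adjusted p = 1.43e-12), and these 2 groups did not differ in the test (adjusted p = 0.435). OSM gave 14.4, 22.9 and 14.0 CPM, at -0.52 log2 units from PBS (SE 0.15, adjusted p = 0.00335), with the second library overlapping PBS. TGFB gave 18.5, 21.7 and 19.6 CPM, all below PBS, at -0.31 log2 units from PBS (SE 0.15, adjusted p = 0.104). When the replicate number was added to the fit as a block, the TGFB difference was called (adjusted p = 0.0137).

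TGFB raised STAT5A in cells that also had EGF. EGF+TGFB libraries measured 10.1, 13.3 and 10.0 CPM, above every EGF library and below every TGFB library (no overlap for 61.6% and 72.7% of all genes). The pair was higher than EGF by 1.12 on the log2 scale (SE 0.16, adjusted p = 3.08e-06). All 3 ligands gave 7.70, 10.5 and 8.46 CPM, higher than EGF+OSM by 0.97 (SE 0.17, adjusted p = 2.98e-05).

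STAT5B, the close relative of STAT5A, changed far less. It measured 63.4, 66.3 and 62.1 CPM in PBS, 53.9, 53.7 and 54.9 CPM with EGF, and 76.7, 86.0 and 72.4 CPM with OSM. OSM was above and EGF below every PBS library. The log2 fold change was 0.29 with OSM (SE 0.05, adjusted p = 7.15e-06), -0.24 with EGF (SE 0.05, adjusted p = 8.97e-05) and -0.23 with TGFB (SE 0.05, adjusted p = 0.000422). EGF+OSM was 56.0 ± 0.71 CPM, on the EGF side of PBS at -0.19 (adjusted p = 0.000947).

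STAT3, STAT5A and STAT5B lie side by side on chromosome 17, so their unlike responses came from neighbouring genes. On GRCh38 (GENCODE v44), STAT5B spans chr17:42199176-42288633 on the minus strand and STAT5A spans chr17:42287547-42311943 on the plus strand. Their annotated spans overlap by 1087 bases at the 5′ ends, and STAT3, at chr17:42313324-42388540 on the minus strand, lies 1380 bases beyond STAT5A. Of the 31-base strings in the canonical STAT5A transcript, 18.4% also occur in transcripts of another gene, all of them in STAT5B, and 13.8% of those in STAT5B are shared. How the authors' counting divided such reads was not given in the sources used here. The STAT5A and STAT5B values are uncertain to that extent. Shares were smaller for STAT2 (5.55%), STAT3 (3.5%), STAT6 (0.46%) and JAK2 (0.19%), while JAK1 and TYK2 shared none.

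Promoter windows of 250 bases before to 50 bases after each start were taken from RefSeq (GRCh38.p14) and searched for letters of known sites on both strands. All 8 members matched, with 15 windows. The motifs were TTC and GAA separated by 3 or by 4 bases of any kind (STAT-type), a pair of GAAA separated by 2 bases (interferon-response type), TGANTCA (AP-1) and CAGACA (SMAD). Over all 35116 windows in that table, 7.66%, 6.44%, 3.57%, 7.71% and 16.9% held them. Among the members 1 match was found, TTC and GAA separated by 4 bases, in the first STAT5A window (chr17:42287189-42287488, plus strand) at position -229 from the start. That window is shown with its match in capitals, beside the only STAT3 window (chr17:42388393-42388692, minus strand), the member with the largest rise with OSM, which held none of these letters. Both are 5′ to 3′ on the strand of the gene.
STAT5A promoter window: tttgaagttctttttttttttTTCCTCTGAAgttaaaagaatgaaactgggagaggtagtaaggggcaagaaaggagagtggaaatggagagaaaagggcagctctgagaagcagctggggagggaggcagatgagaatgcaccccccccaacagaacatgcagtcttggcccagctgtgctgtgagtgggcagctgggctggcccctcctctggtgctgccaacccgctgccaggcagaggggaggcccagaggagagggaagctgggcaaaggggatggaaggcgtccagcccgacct
STAT3 promoter window: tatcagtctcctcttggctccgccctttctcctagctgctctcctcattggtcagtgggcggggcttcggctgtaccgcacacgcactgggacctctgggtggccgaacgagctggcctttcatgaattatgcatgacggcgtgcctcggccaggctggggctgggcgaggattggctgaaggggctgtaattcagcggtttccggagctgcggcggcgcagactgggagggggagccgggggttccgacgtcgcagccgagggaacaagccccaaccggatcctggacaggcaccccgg

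STAT2 is the interferon factor that works with IRF9. It measured 52.9, 49.2 and 49.2 CPM in PBS and 28.0, 25.8 and 21.1 CPM with EGF. OSM gave 54.9, 54.8 and 44.1 CPM and TGFB 54.9, 51.4 and 48.6 CPM, both overlapping PBS. EGF was the single ligand that changed it, at -1.01 log2 units from PBS (SE 0.10, adjusted p = 4.14e-09). The 95% intervals were -0.18 to 0.23 with OSM and -0.17 to 0.24 with TGFB. EGF+OSM stayed low at 27.6, 29.5 and 23.5 CPM. EGF+TGFB measured 36.0, 39.0 and 32.3 CPM, above all EGF libraries, a separation found for 61.6% of all genes. The log2 difference of EGF+TGFB from EGF was 0.52 (SE 0.10, adjusted p = 0.000159). With all 3 ligands STAT2 was 46.9 ± 4.02 CPM, with a log2 difference from PBS of -0.10 (95% interval -0.31 to 0.10). OSM+TGFB was its highest group at 60.3 ± 3.34 CPM, 0.26 above PBS (adjusted p = 0.027), a call that ended in 6 alternative settings with adjusted p from 0.0648 to 0.157.

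STAT6, the factor of interleukin-4 and interleukin-13, fell with every treatment. Its PBS libraries measured 269.5, 274.7 and 267.1 CPM and its EGF libraries 207.1, 199.8 and 193.5 CPM. OSM gave 245.1, 247.6 and 229.6 CPM, and EGF+TGFB, the lowest group, gave 178.6, 183.7 and 192.4 CPM. None of these overlapped PBS (no overlap for 75.7%, 66.1% and 75.7% of all genes with EGF, OSM and EGF+TGFB). The log2 fold change was -0.43 with EGF (SE 0.04, adjusted p = 8.74e-10), -0.17 with OSM (SE 0.04, adjusted p = 0.0011) and -0.55 with EGF+TGFB (SE 0.04, adjusted p = 9.32e-12). With TGFB alone it was -0.12 (SE 0.04, adjusted p = 0.0255), a call that ended without the second PBS library (adjusted p = 0.084) or TGFB library 3 (adjusted p = 0.139).

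**Figure D2:**
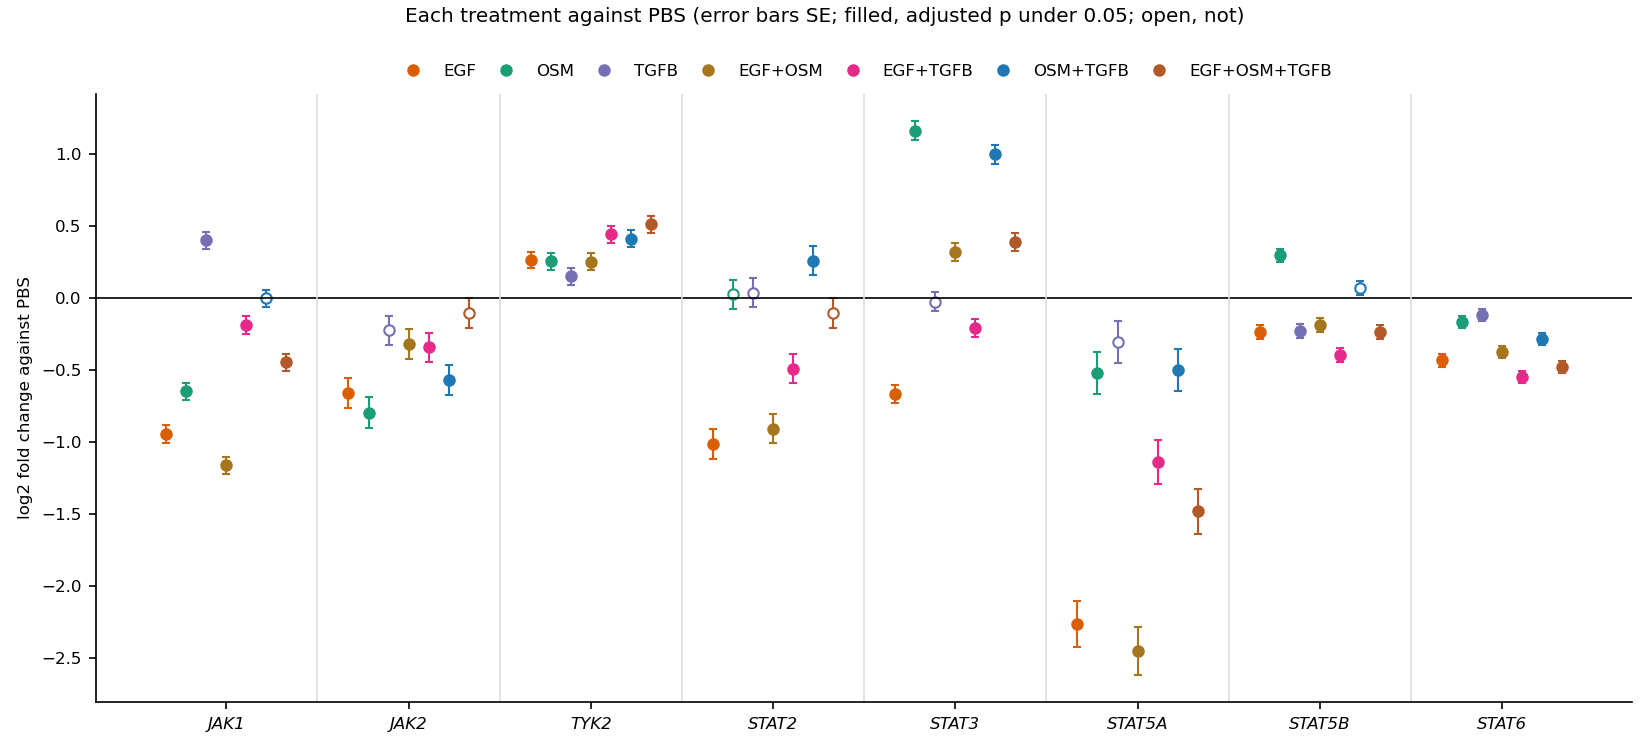
log2 fold change of each treatment against PBS (vertical axis) for the 8 genes, with bars of 1 SE; filled points passed an adjusted p under 0.05 and open points did not. All groups are set against the same 3 PBS libraries. TYK2 points are all above 0 and STAT6 points all below, and STAT5A reaches -2.45 with EGF+OSM.

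The combinations had calls for 8 of 8 members with EGF+OSM (2 higher, 6 lower, with 77.2% of all genes called, 37.6% higher and 39.6% lower) and 8 of 8 with EGF+TGFB (1 higher, 7 lower, with 73.7% called, 36.2% and 37.5%). OSM+TGFB had 6 of 8 (3 higher, 3 lower, with 66% called, 34.2% and 31.8%), and all 3 ligands had 6 of 8 (2 higher, 4 lower, with 74.4% called, 37.7% and 36.7%). The comparisons with PBS share their PBS libraries and are not independent of each other. The summed level of the 3 kinases was 320.5 ± 5.03 CPM in PBS, 181.6 ± 2.73 CPM with EGF+OSM and 408.0 ± 10.6 CPM with TGFB, and JAK1 made up most of it. The summed level of the 5 STAT genes was 692.4 ± 24.1 CPM in PBS, 462.8 ± 13.8 CPM with EGF and 1020.0 ± 98.3 CPM with OSM.

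The series asks whether ligands combine additively. For each pair, the departure is how far its log2 fold change from PBS lies above or below what its single ligands give when their own changes from PBS are summed (the plot of pairs against sums). EGF+OSM had departures for 5 of 8 members, 3 above and 2 below 0, where 38.7% of all genes departed, 15.7% above and 23% below. JAK2 had the largest, 1.14 (SE 0.15, adjusted p = 8.21e-07): each ligand lowered it, and the pair lowered it less than either. JAK1 departed by 0.43 (SE 0.08, adjusted p = 0.00021), and STAT6 by 0.23 (SE 0.06, adjusted p = 0.00364). STAT5B departed by -0.25 (SE 0.07, adjusted p = 0.00533) and TYK2 by -0.27 (SE 0.08, adjusted p = 0.0105). For STAT3, which OSM raised and EGF lowered, the departure was -0.17 with a 95% interval from -0.36 to 0.01 (adjusted p = 0.132). It was called with the replicate number as a block (-0.17, adjusted p = 0.0316) and without OSM library 3 (-0.25, adjusted p = 0.026), and STAT2 was at 0.08.

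EGF+TGFB had departures for 5 of 8 members, all above 0, where 29.8% of all genes departed, 13.3% above and 16.5% below. The largest was STAT5A at 1.43 (SE 0.22, adjusted p = 3.24e-05), followed by JAK2 at 0.54 (SE 0.15, adjusted p = 0.00641). STAT2 departed by 0.49 (SE 0.14, adjusted p = 0.0129), STAT3 by 0.48 (SE 0.09, adjusted p = 0.000242) and JAK1 by 0.36 (SE 0.08, adjusted p = 0.00229). For STAT2 the call ended without the second EGF+TGFB library (0.41, adjusted p = 0.0501). In all 5 genes EGF alone had lowered the level, and the fall was smaller when TGFB was present. JAK1 was the gene among them that TGFB alone raised. STAT5B, TYK2 and STAT6 were at 0.07, 0.03 and 0.01.

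OSM+TGFB had departures for 2 of 8 members, both above 0, where 23.3% of all genes departed (9.61% above, 13.7% below). They were JAK2 at 0.45 (SE 0.15, adjusted p = 0.0288) and JAK1 at 0.25 (SE 0.08, adjusted p = 0.0352), and JAK1 was lost in 8 settings that each left out a library (adjusted p 0.0504 to 0.113), and JAK2 in 7 settings (0.0566 to 0.0964). STAT2 was at 0.20 and STAT3 at -0.14, and STAT5B, STAT6 and TYK2 were at 0.01 each. The STAT5A value was 0.33 with EGF+OSM (adjusted p = 0.274) and 0.33 with OSM+TGFB (adjusted p = 0.279). Without the second OSM library, which was 22.9 CPM beside 14.4 and 14.0 CPM, these became 0.60 (adjusted p = 0.011) and 0.61 (adjusted p = 0.0111).

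With all 3 ligands, 5 of 8 members departed from the sum of the 3 single ligands, all above 0, where 48% of all genes departed, 22% above and 25.9% below. STAT5A departed by 1.61 (SE 0.30, adjusted p = 9.19e-05), JAK2 by 1.58 (SE 0.20, adjusted p = 5.56e-07), STAT2 by 0.85 (SE 0.20, adjusted p = 0.00114), JAK1 by 0.75 (SE 0.12, adjusted p = 1.02e-05) and STAT6 by 0.24 (SE 0.08, adjusted p = 0.0182). STAT6 was lost without the second PBS library (0.22, adjusted p = 0.0639). STAT3 was at -0.08 with a 95% interval from -0.34 to 0.18, STAT5B at -0.06 and TYK2 at -0.16. The 3-way interaction, which is what remains after the 3 pair departures, was called for 0 of 8 members by edgeR's quasi-likelihood test, where 3.9% of all genes were called (2.38% higher, 1.52% lower). DESeq2 also called 0, and 2 members, JAK1 and JAK2, had an unadjusted p under 0.05 in edgeR (0.0235 and 0.0142). JAK1 was called with the replicate number as a block (-0.29, adjusted p = 0.0464) and without EGF+TGFB library 3 (-0.40, adjusted p = 0.0389).

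**Figure D3:**
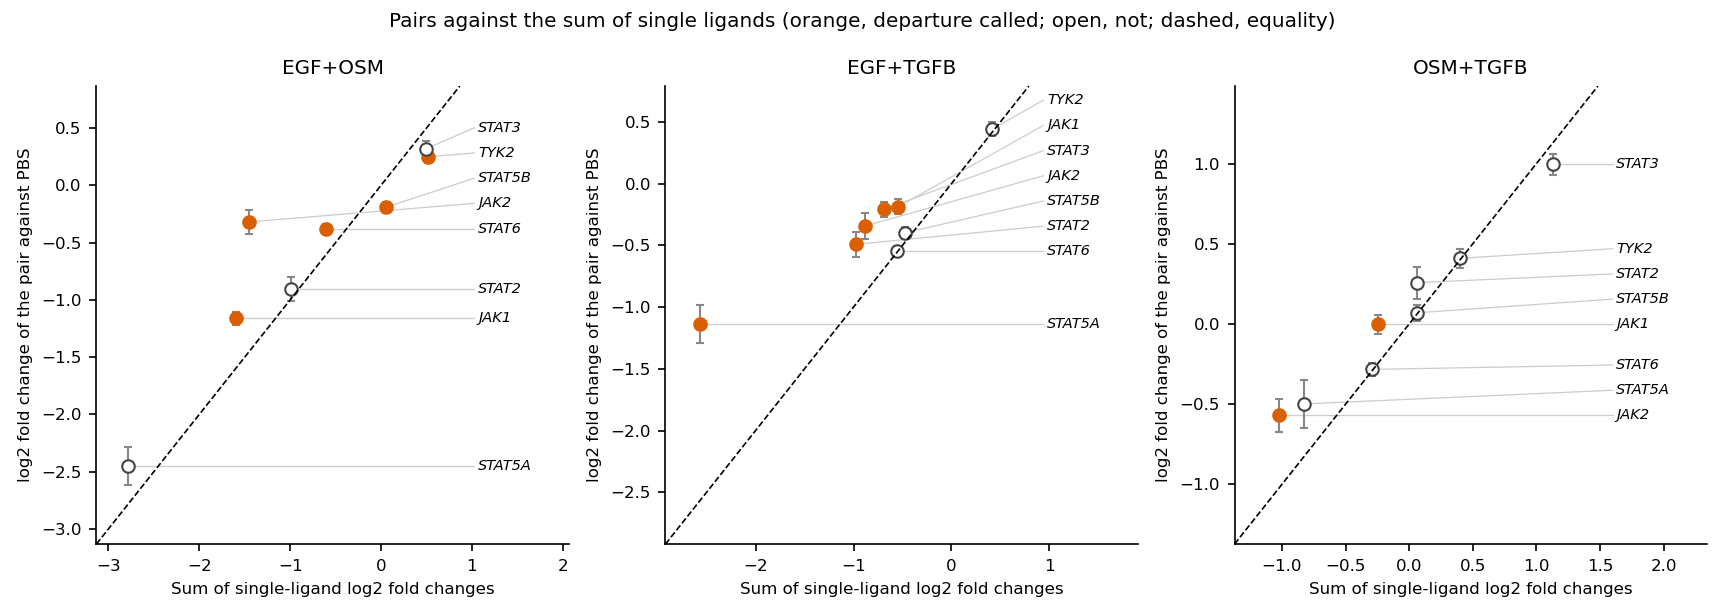
log2 fold change of each pair of ligands against PBS (vertical axes, bars of 1 SE) against the summed log2 fold changes that each of its ligands gave alone (horizontal axes); orange points had a departure with an adjusted p under 0.05, open points did not, and the dashed line marks equality. The axes share the PBS libraries, so only the distance from the line was tested. JAK2 lies 1.14 above the line with EGF+OSM and STAT5A 1.43 above it with EGF+TGFB.

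Adding a ligand to cells that already had another was compared without PBS. OSM added to EGF changed 3 of 8 members, where 34.9% of all genes were called (17.8% higher, 17.1% lower): STAT3 by 0.99, JAK2 by 0.34 and JAK1 by -0.22 (adjusted p = 0.00626 for JAK1). STAT2, STAT5A, STAT5B, STAT6 and TYK2 were not called, at 0.10, -0.19, 0.05, 0.06 and -0.01. EGF added to OSM changed 7 of 8 (1 higher, 6 lower, with 61.7% of all genes called, 29.9% and 31.8%). STAT5A fell by 1.93 on the log2 scale (SE 0.17, adjusted p = 7.72e-10), STAT2 by 0.93 (SE 0.10, adjusted p = 4.36e-08) and JAK1 by 0.51 (SE 0.06, adjusted p = 6.53e-08). STAT3 fell by 0.84, STAT5B by 0.48 and STAT6 by 0.21, JAK2 rose by 0.48, and TYK2 was the gene not called.

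TGFB added to EGF changed 8 of 8 members (6 higher, 2 lower, with 54.6% called, 27% and 27.7%), led by STAT5A at 1.12 and JAK1 at 0.76 (SE 0.06, adjusted p = 1.08e-10). STAT2 rose by 0.52, STAT3 by 0.46, JAK2 by 0.32 and TYK2 by 0.18, and STAT5B fell by 0.16 and STAT6 by 0.11. With 1 library left out 6 to 8 members were called: over the alternatives besides the 2-fold limit STAT6 was lost in 6 (adjusted p 0.0557 to 0.2), STAT5B in 2 (0.061 to 0.066) and TYK2 in 1 (0.0775). TGFB added to OSM changed 5 of 8 (2 higher, 3 lower, with 51.6% called, 26.1% and 25.6%). JAK1 rose by 0.65 (SE 0.06, adjusted p = 2.02e-09) and TYK2 by 0.16, and STAT5B fell by 0.22, STAT3 by 0.17 and STAT6 by 0.11. STAT6 and TYK2 were each lost in 6 alternatives (adjusted p 0.069 to 0.105 and 0.0513 to 0.11), and STAT3 in 4 (0.0934 to 0.36). STAT2, at 0.23 (adjusted p = 0.0544), was called in 11 alternatives, among them the replicate block (adjusted p = 0.00597), and JAK2 and STAT5A were at 0.23 and 0.02.

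EGF added to TGFB changed 7 of 8 members (1 higher, 6 lower, with 69.4% called, 33.9% and 35.5%). STAT5A fell by 0.83, JAK1 by 0.59, STAT2 by 0.53, STAT6 by 0.43, STAT3 by 0.18 and STAT5B by 0.17, TYK2 rose by 0.29, and JAK2 was at -0.12 (adjusted p = 0.321). With 1 library left out 5 to 7 were called, and without EGF+TGFB library 3 STAT3 was at -0.08 (adjusted p = 0.269). STAT3 was lost in 3 alternatives (adjusted p 0.0616 to 0.269) and STAT5B in 2 (0.055 to 0.0953). OSM added to TGFB changed 6 of 8 (3 higher, 3 lower, with 56.6% called, 30.1% and 26.4%). STAT3 rose by 1.02, STAT5B by 0.30 and TYK2 by 0.26, and JAK1 fell by 0.40, JAK2 by 0.34 and STAT6 by 0.16. STAT2 was at 0.22 (adjusted p = 0.0621, and 0.00877 with the replicate block), and STAT5A at -0.19.

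A ligand added to the other two changed 5 of 8 members where it was TGFB (4 higher, 1 lower, with 61.1% called, 31.6% and 29.5%), with STAT5A at 0.97, STAT2 at 0.80, JAK1 at 0.71, TYK2 at 0.26 and STAT6 at -0.10. The last was lost in 5 alternatives (adjusted p 0.0506 to 0.179). Where it was OSM, 4 of 8 changed (3 higher, 1 lower, with 26.4% called, 13.6% and 12.8%), with STAT3 at 0.60, STAT2 at 0.39, STAT5B at 0.16 and JAK1 at -0.26. STAT5B was lost in 5 alternatives (adjusted p 0.052 to 0.128) and STAT2 in 1 (0.0598). STAT5A, at -0.34, and JAK2, at 0.24, were not called. STAT5A was called in 2 alternatives (adjusted p 0.0232 to 0.0375) and JAK2 in 1 (0.0305). Where it was EGF, 7 of 8 changed (1 higher, 6 lower, with 52.2% called, 26.3% and 25.9%), with STAT5A at -0.98, STAT3 at -0.61, JAK1 at -0.45, STAT2 at -0.36, STAT5B at -0.31 and STAT6 at -0.20. JAK2 was the member that rose when EGF was added to OSM+TGFB (0.47, SE 0.11, adjusted p = 0.000614), as it did when EGF was added to OSM.

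PBS libraries carry no ligand and T0 libraries no treatment, and the time between them is not given. In PBS, 4 of 8 members were higher than in T0 and 0 lower, where 35.1% of all genes were called, 16.2% higher and 18.9% lower. DESeq2 called the same number, and 4 members had an unadjusted p under 0.05. STAT5A measured 15.9, 15.2 and 14.2 CPM in T0, below all PBS libraries, a separation found for 47.2% of all genes. It rose by 0.71 (SE 0.15, adjusted p = 0.000531). JAK2 rose by 0.51 (SE 0.10, adjusted p = 0.00036), JAK1 by 0.43 (SE 0.06, adjusted p = 3.42e-06) and STAT3 by 0.37 (SE 0.06, adjusted p = 6.18e-05). STAT6, TYK2, STAT5B and STAT2 had log2 differences of -0.01, 0.02, 0.08 and -0.12.

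The order of the 9 groups differed between members. Among all 36 pairs of groups, 34 were called for JAK1 and for STAT3, 30 for STAT6, 28 for STAT5A and for STAT5B, 26 for TYK2, 23 for STAT2 and 20 for JAK2. Each pair called from 26.4% (all 3 ligands against EGF+TGFB) to 77.2% (EGF+OSM against PBS) of all genes. How many pairs were called for other genes was not counted. JAK1 rose from EGF+OSM through EGF, OSM, all 3 ligands, T0, EGF+TGFB, OSM+TGFB and PBS to TGFB, and all 3 ligands did not differ from T0 beyond the spread, nor OSM+TGFB from PBS. STAT3 rose from EGF through T0, EGF+TGFB, TGFB, PBS, EGF+OSM, all 3 ligands and OSM+TGFB to OSM, and the neighbours TGFB and PBS, and EGF+OSM and all 3 ligands, did not differ beyond the spread. STAT5A rose from EGF+OSM through EGF, all 3 ligands, EGF+TGFB, T0, OSM, OSM+TGFB and TGFB to PBS, with called steps only from EGF to all 3 ligands and from EGF+TGFB to T0. STAT2 had called steps only from EGF+OSM to EGF+TGFB and from there to all 3 ligands, and its groups from all 3 ligands upward (PBS, OSM, TGFB, T0, OSM+TGFB) were not separated from their neighbours. STAT5B ran from EGF+TGFB (48.5 ± 0.59 CPM) through all 3 ligands, EGF, TGFB, EGF+OSM, T0, PBS and OSM+TGFB to OSM (78.4 ± 6.92 CPM), with 3 of 8 steps called. STAT6 ran from EGF+TGFB through all 3 ligands, EGF, EGF+OSM, OSM+TGFB, OSM, TGFB and PBS to T0 (273.0 ± 2.96 CPM), with 2 of 8 steps called. TYK2 ran from T0 through PBS, TGFB, EGF+OSM, OSM, EGF, OSM+TGFB and EGF+TGFB to all 3 ligands (65.7 ± 2.84 CPM), with 2 of 8 steps called. JAK2 ran from OSM (6.68 ± 0.87 CPM) through EGF, OSM+TGFB, T0, EGF+TGFB, EGF+OSM, TGFB and all 3 ligands to PBS (11.6 ± 1.38 CPM), and 0 of its 8 steps were called.

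Levels of different genes were compared per length of the canonical transcript. In PBS, STAT6 had 68.2 ± 0.97 CPM per kilobase, STAT3 57.5 ± 3.38 and JAK1 51.6 ± 1.00. The other 5 were far lower, with STAT5B at 12.6, STAT2 at 11.4, TYK2 at 10.9, STAT5A at 6.54 and JAK2 at 1.65 CPM per kilobase. With OSM, STAT3 reached 128.6 ± 14.9 CPM per kilobase and passed STAT6, at 60.7 ± 2.46. The remaining members lie on 4 other chromosomes in GENCODE v44 on GRCh38: JAK1 at chr1:64833223-65067754 (minus strand), JAK2 at chr9:4984390-5129948 (plus), TYK2 at chr19:10350533-10380608 (minus), and STAT2 at chr12:56341597-56360203 and STAT6 at chr12:57095408-57132139 (both minus, 735.2 kb apart).

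Among members, the group means of log2(CPM + 1) followed each other most for STAT2 and STAT5A (Pearson r = 0.88 over the 9 groups) and for STAT5A and JAK1 (r = 0.83), and ran opposite for STAT6 and TYK2 (r = -0.88). The 9 means share libraries and scaling, so these are descriptions only. Among the 10627 genes with a mean of at least 5 CPM, the nearest to STAT3 were RBM7, DUSP22 and SIPA1L2 (r = 0.97, 0.97 and 0.96), and the nearest to STAT5A were HMBOX1, PLD3 and NR1H2 (r = 0.99, 0.98 and 0.98). JAK1 was followed most closely by CDC42BPB, FNBP1L and CACFD1 (r = 0.99, 0.98 and 0.98), and STAT2 by NMRK1, TMEM260 and KDM4A (r = 0.99, 0.99 and 0.98). For STAT6 they were NEPRO, LETMD1 and TAB1 (r = 0.99 for each), for TYK2 GORAB, AKAP17A and SLC15A4 (r = 0.99 for each) and for STAT5B LRPAP1, RPS28 and RPL34 (r = 0.98, 0.97 and 0.96). JAK2 had the least close matches, USP53, RBM18 and ATXN7 (r = 0.91, 0.91 and 0.89).

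Cytokine receptors that feed these kinases changed widely. Of 22 receptor genes, 8 rose and 11 fell with EGF, 10 rose and 8 fell with OSM, and 9 rose and 4 fell with TGFB, where 34.9% and 38.6%, 33.5% and 29.8%, and 19.9% and 15.8% of all genes did. Their median log2 fold changes were -0.21, 0.23 and 0.18, beside -0.07, 0.00 and -0.01 for all genes. OSMR, the specific chain of the OSM receptor, went from 79.9 ± 4.22 CPM in PBS to 556 ± 46.1 CPM with OSM, which is 2.80 higher on the log2 scale (SE 0.07, adjusted p = 1.67e-20), and to 165.2 ± 3.82 CPM with TGFB, a log2 fold change of 1.05. IL4R, the chain through which STAT6 is activated, rose from 43.2 ± 3.67 to 241.1 ± 0.88 CPM with OSM (log2 fold change 2.48, adjusted p = 2.18e-21). IL6ST, which encodes gp130 and is named after its values were seen, went from 147.3 ± 5.76 to 193.6 ± 5.65 CPM with OSM (log2 fold change 0.39, adjusted p = 1.45e-07).

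With EGF the largest receptor change was a fall of GHR, the growth hormone receptor (18.3 ± 1.21 to 3.28 ± 0.07 CPM, log2 fold change -2.48). IL6R, the interleukin-6 chain, fell as well (122.7 ± 0.67 to 35.5 ± 1.40 CPM, log2 fold change -1.79). IL7R rose by 2.03 with EGF and by 3.47 with OSM, from a level of only 0.288 ± 0.05 CPM in PBS. With TGFB the interferon lambda chain IFNLR1 rose by 1.50 and the interleukin-22 chain IL22RA1 by 1.21.

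Inhibitors of the pathway include the SOCS family, which blocks JAKs and receptors, and phosphatases. Of 18 inhibitor genes, 7 rose and 5 fell with EGF, 8 rose and 8 fell with OSM, and 7 rose and 3 fell with TGFB, with medians of 0.01, 0.10 and 0.14. Of all genes 34.9% rose and 38.6% fell with EGF, 33.5% and 29.8% with OSM and 19.9% and 15.8% with TGFB, and their medians of all genes were -0.07, 0.00 and -0.01. SOCS3, the feedback inhibitor of gp130 and a STAT3 target, rose from 1.49 ± 0.32 to 165.1 ± 19.9 CPM with OSM (log2 fold change 6.77, SE 0.15, adjusted p = 1.33e-20) and to 3.03 ± 0.18 CPM with TGFB (1.01, adjusted p = 0.000309). SOCS1 fell from 5.62 ± 0.42 CPM to 0.693 ± 0.04 CPM with EGF (log2 fold change -3.01, adjusted p = 4.93e-12) and to 0.341 ± 0.11 CPM with OSM (-4.05, adjusted p = 2.77e-13). CISH, a STAT5 feedback inhibitor, rose by 2.29 with OSM, and SOCS2 and the adaptor SH2B3 rose by 1.82 and 1.67 with EGF. With TGFB, SOCS2 and SOCS6 rose by 0.58 and 0.51.

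Genes known as STAT3 targets mostly rose with OSM and mostly fell with EGF (the plot of pathway genes called). Of 13 genes in that list, which includes STAT3 and shares 3 genes with other lists, 10 rose and 2 fell with OSM, 3 rose and 8 fell with EGF, and 3 rose and 2 fell with TGFB. Among all genes 33.5% rose and 29.8% fell with OSM, 34.9% and 38.6% with EGF, and 19.9% and 15.8% with TGFB. The list's median log2 fold changes were 1.16, -0.64 and 0.01. The median with OSM was the value of STAT3 itself, the middle gene of the 13. LRG1, a secreted glycoprotein, rose from 0.713 ± 0.26 to 25.2 ± 6.84 CPM with OSM (log2 fold change 5.15, adjusted p = 1.49e-14), and TIMP1, a metalloproteinase inhibitor, from 153.0 ± 3.71 to 2221 ± 263 CPM (3.86, adjusted p = 4.24e-21). With EGF the acute-phase gene SERPINA3 fell from 587.4 ± 108 to 73.0 ± 17.8 CPM (log2 fold change -3.01) and the kinase PIM3 by 2.07, while TIMP1 rose by 2.20. With TGFB, PIM3 fell by 0.89 and PIM1 rose by 0.82.

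Of 8 genes in the STAT5 target list 7 were tested, ELF5 having too few counts. With EGF, where STAT5A fell, 5 of them rose and 2 fell (34.9% and 38.6% of all genes), with a median of 0.69. CCND1, cyclin D1, rose from 42.0 ± 1.42 to 227.3 ± 12.4 CPM (log2 fold change 2.44), SOCS2 rose by 1.82, and BCL6, a repressor, fell from 105.3 ± 3.36 to 14.7 ± 1.27 CPM (-2.84). With OSM, 3 rose and 1 fell (33.5% and 29.8% of all genes) although the median was -0.06, and with TGFB, 2 rose and 2 fell (19.9% and 15.8% of all genes) with a median of 0.26.

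The list of genes driven by STAT2 and IRF9, which includes STAT2, held 21 genes. With EGF 15 fell and 3 rose, where 38.6% and 34.9% of all genes did, and the median was -1.10 beside -0.07 for all genes. RSAD2, IFIT2 and IFIT1, antiviral effectors, fell by 3.12, 2.73 and 2.49 on the log2 scale, from 2.81 ± 0.68, 7.86 ± 1.49 and 7.15 ± 0.76 CPM in PBS. IRF9, named after its values were seen, went from 12.2 ± 1.79 to 5.28 ± 0.99 CPM with EGF (log2 fold change -1.21, adjusted p = 1.79e-08). With OSM, 7 rose and 6 fell (33.5% and 29.8% of all genes): IFITM1 rose by 3.39 (SE 0.26, adjusted p = 1.88e-11) while IFIT1 and IFI27 fell by 2.28 and 1.93. With TGFB all 7 genes called were lower, where 15.8% of all genes were, with a median of -0.14 over the list, and OAS1 fell by 0.94, OAS2 by 0.94 and MX2 by 1.01. STAT2 itself was not called with TGFB.

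Of 7 STAT6 target genes 4 were tested, CCL26, ALOX15 and CLCA1 having too few counts. With EGF and with OSM, 2 of these 4 rose and 2 fell in each, and with TGFB 2 rose and 1 fell. Of all genes, 34.9% rose and 38.6% fell with EGF, 33.5% and 29.8% with OSM, and 19.9% and 15.8% with TGFB. POSTN, a matrix protein, was at 0.423 ± 0.03 CPM in PBS and rose by 2.46 with EGF, 3.47 with OSM and 3.23 with TGFB. SERPINB2, an inhibitor of plasminogen activators, fell by 0.62 with TGFB (adjusted p = 0.000795). The other genes in this list named above, IL4R and SOCS1, are also members of the receptor and inhibitor lists.

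**Figure D4:**
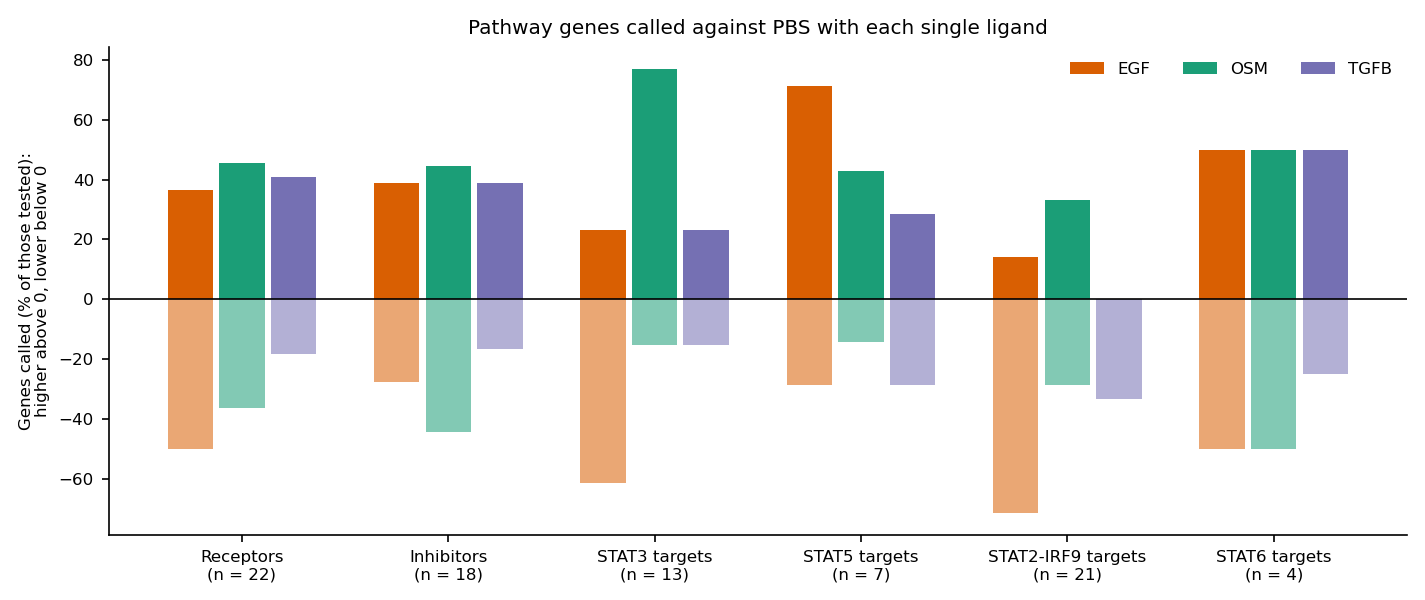
Share of the tested genes in each pathway list that were higher (bars above 0) or lower (paler bars below 0) than PBS at an adjusted p under 0.05 with EGF, OSM and TGFB; n is the number of genes tested in the list. STAT3 targets are mostly higher with OSM (10 of 13) and lower with EGF (8 of 13), and STAT2-IRF9 targets are mostly lower with EGF (15 of 21).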

How the data were processed

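Bulk RNA-seq of MCF10A cells was read from a table of 40487 Ensembl gene rows with 27 library columns, 3 libraries in each of 9 groups assigned by sample titles. The authors deposited whole numbers, treated here as estimated counts because the submitters' processing notes name kallisto 0.46.2. The notes also name Trim Galore 0.4.3, cutadapt 1.10, FastQC 0.11.5 and R 3.5.0 and the builds GRCh38.p5 and hg38, with no roles or order. Estimated counts depend on how reads shared by similar transcripts are divided. Rows sharing a symbol were summed, and rows without a symbol (0.324% of counts) kept their Ensembl identifier.

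Tests used edgeR 4.0.16 in R 4.3.3: filterByExpr by group, TMM scaling (factors 0.867 to 1.12), one robust quasi-likelihood fit with a mean per group over all 27 libraries, and Benjamini-Hochberg adjustment over 15575 genes within each contrast (biological coefficient of variation 7.83%). Intervals are 95%. Replicates differed by more than sampling noise (chi-square per degree of freedom 6.52 to 31.7). Alternatives were DESeq2 1.42.0, upper-quartile and RLE scaling, no filter, a filter of 1 CPM in 3 libraries, rows as deposited, only the groups of a contrast, a replicate block, a 2-fold limit and leaving out each library. Counts of alternatives in which a call was lost leave out the 2-fold limit. Any of the 8 genes could be named in a comparison whatever its result, and not every value of every member is printed. From each list the text names at most the 3 called genes with the largest change, unless stated, and for each member the 3 genes with the highest correlation of group means. Members, lists and tests were chosen with earlier results of these data known.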

Additional observations from a re-analysis of the deposited data

Results flagged for a closer look

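The effect of 1 ligand on a gene differed with the presence of another in 12 cases, each tested by the interaction term in edgeR's quasi-likelihood fit. Of all genes tested, 38.7% departed with EGF+OSM, 29.8% with EGF+TGFB and 23.3% with OSM+TGFB. Values are departures of the pair from the sum of its single ligands, on the log2 scale. With EGF+OSM, JAK2 departed by 1.14, JAK1 by 0.43 and STAT6 by 0.23, and STAT5B by -0.25 and TYK2 by -0.27. For STAT5B, which OSM alone raised and EGF alone lowered, the pair lay on the EGF side of PBS. With EGF+TGFB, STAT5A departed by 1.43, JAK2 by 0.54, STAT2 by 0.49, STAT3 by 0.48 and JAK1 by 0.36. With OSM+TGFB, JAK2 departed by 0.45 and JAK1 by 0.25. The OSM+TGFB call was lost in 7 alternatives for JAK2 and in 8 for JAK1. For STAT2 the EGF+TGFB call was lost in 1. The departures share the PBS libraries and are not independent of each other.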

How the results depend on the processing

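Of 176 results for a member in a comparison, 120 were called, and 98 of these were called under every alternative but the 2-fold limit. Of the called results, 0 changed sign under any of the 36 alternatives, and 20 uncalled ones did. No scaling moved the median of all genes by over 0.1 on the log2 scale. With 3 libraries per group, differences of a few hundredths of a log2 unit were not detectable, and STAT5A had the widest errors. The cause was not tested where a call changed, except that the 2-fold limit asks more by construction and fewer samples enter some fits.

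A limit of 2-fold on each call left 14 member results. The members called became 2 with EGF, 1 with OSM, 0 with TGFB, 2 with EGF+OSM, 1 with EGF+TGFB, 0 with OSM+TGFB and 1 with all 3 ligands, and 0 for PBS against T0. Under the same limit 4287, 3138, 903, 5401, 4684, 3771 and 4889 of all 15575 genes were called in the 7 treatments in that order, and 860 for PBS against T0. Departures became 1 in EGF+OSM, 1 in EGF+TGFB, 0 in OSM+TGFB and 2 in all 3 ligands, beside 1603, 664, 721 and 3279 of all genes. A ligand added to 1 other became 0 and 1 (EGF+OSM against EGF and OSM), 1 and 0 (EGF+TGFB against EGF and TGFB) and 0 and 1 (OSM+TGFB against OSM and TGFB), and 0 for each ligand added to a pair. Of all genes, 1248 and 2256, 1473 and 3660, and 1424 and 2570 were called for a ligand added to 1 other, in that order. For a ligand added to EGF+OSM, EGF+TGFB and OSM+TGFB they were 2338, 895 and 1739. Neighbouring groups called became 0 for each member. For JAK2, STAT5B, STAT6 and TYK2 this was fixed beforehand, since their means ranged over less than 2-fold. With EGF, OSM and TGFB in turn, receptors called became 8, 10 and 4 and inhibitors 6, 4 and 1. STAT3 targets became 3 with EGF and 1 with TGFB, STAT5 targets 4, 2 and 0, STAT2-IRF9 targets 7 with OSM and 1 with TGFB, and STAT6 targets 1 with TGFB.

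Reversals of uncalled values were small. With DESeq2 they were -0.00028 (STAT2, OSM against PBS), -0.0017 (STAT6, EGF+TGFB departure), -0.016 (STAT6, 3-way interaction) and 0.029 (TYK2, EGF+OSM against OSM), and RLE scaling gave -0.0013, -0.016 and 0.029 for the last 3. Upper-quartile scaling gave -0.033 (STAT2, OSM against PBS), -0.017 (STAT5B, OSM+TGFB against PBS) and -0.0065 (STAT5A, OSM+TGFB against OSM). The 3-way interaction of STAT6 was -0.0031 with a filter of 1 CPM in 3 libraries and -0.043 with no filter, which also gave 0.024 for TYK2 (EGF+OSM against OSM). With only the groups of the contrast, departures were -0.050 and -0.029 for STAT6 and TYK2 (EGF+TGFB), and -0.0017, -0.0039 and -0.0029 for STAT5B, STAT6 and TYK2 (OSM+TGFB). That fit called 1 member for the OSM+TGFB departure and 2 for OSM+TGFB against OSM. Neighbouring groups called for TYK2 were 0 with DESeq2, RLE, upper-quartile scaling and no filter, and 1 with the 1 CPM filter and the contrast's groups alone. For STAT5B and STAT6 they were 1 with no filter and with the contrast's groups alone.

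Leaving out each library gave these ranges over the 27 fits for values that changed sign. For PBS against T0, TYK2 -0.015 to 0.048. For OSM+TGFB against PBS, JAK1 -0.038 to 0.053. For TGFB against PBS, STAT3 -0.058 to 0.023, STAT2 -0.011 to 0.077. For the EGF+TGFB departure, STAT6 -0.024 to 0.036, TYK2 -0.014 to 0.086. For the OSM+TGFB departure, STAT5B -0.045 to 0.080, STAT6 -0.026 to 0.026, TYK2 -0.023 to 0.052. For the 3-way interaction, STAT6 -0.027 to 0.039, STAT2 -0.045 to 0.19. For EGF+OSM against EGF, TYK2 -0.084 to 0.042, STAT2 -0.00085 to 0.19. For the EGF+OSM departure, STAT2 -0.025 to 0.17. For OSM against PBS, STAT2 -0.027 to 0.12. For EGF+OSM against OSM, TYK2 -0.072 to 0.042. For OSM+TGFB against OSM, STAT5A -0.10 to 0.30. For the all 3 ligands departure, STAT3 -0.18 to 0.012, STAT5B -0.12 to 0.0075. Members called ranged over 2 to 5 with TGFB, 0 to 2 for the OSM+TGFB departure, 0 to 1 for the 3-way interaction, 2 to 6 for OSM+TGFB against OSM and 2 to 5 for all 3 ligands against EGF+TGFB. Neighbouring groups called ranged over 1 to 2 for STAT2, 1 to 4 for STAT5A, 1 to 3 for STAT6 and 0 to 2 for TYK2, and STAT3 targets called with TGFB over 3 to 6.

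With the replicate number as a block (replicate block), 1 member was called for the 3-way interaction and 4 neighbouring groups for STAT5A. All genes called for the 3-way interaction went from 607 to 1247. Same-numbered libraries of different groups had residual correlations averaging 0.166, over 0.1 in 85 of 108 pairs. Of 27 libraries, 27 correlated best with their own number. Different numbers averaged -0.0823, but residuals were taken from each group's own mean, so this value largely mirrors the first by construction. The likeness by number is a hint from the data, not the design, since the labels do not say what a number shares.

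Of all genes called, the share that was higher went from 61.1% to 49.7% for the 3-way interaction with no filter and to 43.4% without EGF+TGFB library 3, and from 44.7% to 33.5% for the EGF+TGFB departure with only the groups of the contrast, but to 55.2% without EGF+TGFB library 3.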
